A study of Mus musculus with 6 samples.

Results

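The surface antigens by which tuft cells of the mouse intestine are recognized and sorted were read here as transcripts. The set was given by name and not by level, as Cd24a, Epcam, Prom1, Kit, Cd44, Cd47, Siglec5 and Siglecf. These 8 names correspond to 7 of the 23420 genes in the table, because the table has no row named Siglecf and RefSeq gives Siglec5 as an older symbol of the mouse gene Siglecf. RefSeq also gives Siglec5 as an older symbol of Siglece, but Siglece has a row of its own and was listed at no more than 0.86 TPM. The row named Siglec5 was therefore read as Siglecf, and it is called Siglecf below. The cells were ileal tuft cells of C57BL/6J mice with the Gfi1b-eGFP allele, in which 1 copy of the gene of the transcription factor Gfi1b carries green fluorescent protein, so every library comes from animals with this allele. They were sorted as alive, GFP-positive, EpCam-positive and CD45-negative, and 6 libraries, labelled as mouse replicates 1 to 6, form a single group with no treatment and no age in the labels. No sorted GFP-negative epithelium was analysed here, so the levels describe tuft cell libraries and do not show whether a gene is higher in tuft cells than in other epithelial cells.

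Tuft cells are rare chemosensory cells of the gut epithelium that release IL-25 when they sense parasites or metabolites. Because they are rare, they are usually enriched by flow cytometry, in which an antibody to a protein of the cell surface separates them from enterocytes, secretory cells and the lymphocytes that lie between epithelial cells. EpCAM is a homophilic adhesion molecule of epithelial cells. CD24 is a small, heavily glycosylated protein held in the membrane by a lipid anchor, and Siglec-F, a sialic acid-binding receptor best known from eosinophils, is an antigen of intestinal tuft cells. CD47 is the ligand of the phagocyte receptor SIRPα, prominin-1 (CD133, the product of Prom1) is a cholesterol-binding protein of membrane protrusions, KIT is the receptor tyrosine kinase of stem cell factor and CD44 is a receptor of hyaluronan. CD24, CD44, prominin-1 and KIT have also been used to mark stem, progenitor or Paneth cells of the crypt.

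Values are given as TPM, the share of a gene among all transcripts of a library after correction for transcript length. Comparing genes by TPM assumes reads along the whole transcript. The labels also name sequencing of 3' ends, for which this correction would lower long transcripts relative to short ones. The transcripts used here have, for example, 1816 bases for Cd24a and 5614 for Cd44. The effect on the order of the genes and on their ratios was not tested. All 7 genes were listed above 0 TPM in all 6 libraries, against 47.2% of all genes, and 6 of the 7 had a mean of at least 100 TPM, against 4.5% of all genes. The exception was Cd44. The libraries listed 13044 to 13308 genes above 0, and the ribosomal RNA precursor Rn45s took 23.1% to 32.6% of the TPM. Median-of-ratios factors, which bring the genes listed in all libraries to a common level, ranged from 0.899 to 1.12. Depth cannot be recovered from TPM, so no counting error is given. Tuft cell genes were present throughout, with 13 of 13 above 0 in all libraries at 7221 to 12050.0 TPM in sum. Genes of other epithelial cells were present as well, with 4089 to 26976 TPM over 7 Paneth cell genes, 778 to 4318 TPM over 7 goblet cell genes and 5855 to 14822 TPM over 8 enterocyte genes, and their part in the levels below was not tested. In such bulk libraries fewer cells of a type and less RNA per cell cannot be told apart.

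The start regions of 6 of the 7 genes were found in RefSeq (GRCm38.p6), as windows of 300 bases. They are shown for Siglecf, as the sialic acid receptor of the set, and for Cd47 and Kit, whose levels followed each other across libraries. Capitals mark the GC box GGGCGG on either strand, which 35.7% of all 32851 windows hold.
Siglecf, plus strand of chr7:43351091-43351390: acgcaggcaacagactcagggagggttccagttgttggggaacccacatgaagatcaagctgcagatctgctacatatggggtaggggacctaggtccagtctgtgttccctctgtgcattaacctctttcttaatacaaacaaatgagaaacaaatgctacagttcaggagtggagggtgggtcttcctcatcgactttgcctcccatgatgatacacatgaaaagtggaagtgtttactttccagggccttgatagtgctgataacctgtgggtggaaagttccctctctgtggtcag
Cd47, plus strand of chr16:49855404-49855703, the first of its windows: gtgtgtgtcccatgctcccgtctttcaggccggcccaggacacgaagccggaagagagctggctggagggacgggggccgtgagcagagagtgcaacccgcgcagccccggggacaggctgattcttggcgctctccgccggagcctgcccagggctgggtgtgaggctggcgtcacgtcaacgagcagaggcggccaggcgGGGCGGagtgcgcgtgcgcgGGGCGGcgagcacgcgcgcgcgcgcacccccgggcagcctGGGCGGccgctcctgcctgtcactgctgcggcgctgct
Kit, plus strand of chr5:75574737-75575036, the first of its windows: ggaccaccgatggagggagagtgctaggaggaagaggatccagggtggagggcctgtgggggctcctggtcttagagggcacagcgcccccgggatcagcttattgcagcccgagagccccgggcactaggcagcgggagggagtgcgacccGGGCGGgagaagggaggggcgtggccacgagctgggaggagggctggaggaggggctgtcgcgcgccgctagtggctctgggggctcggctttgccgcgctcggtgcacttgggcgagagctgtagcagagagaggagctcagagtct
The Cd47 window starts inside the span that GENCODE M21 gives the gene. It held 3 GC boxes at 74.0% G and C, and the Kit window held 1 at 69.0% G and C. The Siglecf window held none, with 48.3% G and C and 2 CpG dinucleotides, where Cd47 had 35 and Kit had 20. Epcam, Cd44 and the second window of Prom1 held 1 GC box each. The TATA box TATAAA (13.6% of all windows) and the octamer ATGCAAAT bound by POU proteins (1.74%), searched on both strands, were in none of the windows of the 6 genes. These letters are descriptions of the windows and no binding was measured.

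Epcam (ENSMUSG00000045394.9; GENCODE M21 on GRCm38, chr17:87635979-87651129, plus strand, 10 exons) was the antigen of the positive gate, so its presence is given by the sort. Its levels in the table were 2056.5, 1787, 1715, 1571, 1005 and 1199.9 TPM, in the order of replicates 1 to 6 (mean 1556 ± 390 TPM; SD, n = 6). Replicates 1 to 3 all lay above replicates 4 to 6, and the highest library had 2.05 times the lowest. Of the 7 genes, only Epcam had values in these sets that did not overlap. That order was found for 13.3% of genes listed above 0 in all libraries. After median-of-ratios scaling 0 of the 7 showed it, while all 7 still had a higher mean in replicates 1 to 3. For neither count was the share of all genes computed under this scaling. Genes of proteins that sit with EpCAM in the membrane were abundant, at 1179 ± 221 TPM for the tight junction gene Cldn7 and 1069 ± 173 TPM for the tetraspanin Tspan8. The tetraspanin genes Cd63 (175 ± 64.3 TPM), Cd81 (140.3 ± 29.1 TPM), Cd82 (98.8 ± 21.0 TPM), Cd9 (69.0 ± 25.4 TPM) and Cd151 (32.3 ± 10.9 TPM) were lower (SD, n = 6 each). Prom2, the paralog of Prom1, was listed at 0 in all 6 libraries.

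Cells were kept only when CD45 protein was not detected on their surface, yet Ptprc, the gene of CD45, was listed in every library. It had 171, 156, 84.5, 110.5, 77.4 and 74.2 TPM in replicates 1 to 6 (mean ± SD, 112 ± 42.0 TPM; n = 6). This is near the level of Gfi1b, the gene behind the GFP gate, at 109 ± 32.6 TPM, and Ptprc per Gfi1b was 1.02 ± 0.130 within libraries (SD, n = 6). The other 8 genes of the leukocyte list summed to 36.4 to 77.3 TPM, and 0 of the 8 had a mean above that of Ptprc. Of these, Itgam averaged 14.3 ± 3.37 TPM and Cd52 averaged 10.8 ± 14.5 TPM (SD, n = 6), with 39.2 TPM in replicate 5. The T cell genes Cd3e, Cd3g and Cd8a reached at most 11.6, 13.1 and 8.42 TPM, Cd3e in replicate 6 and the others in replicate 5. Ptprc was highest in replicate 1, and the sum of the other 8 genes was highest in replicate 5. TPM does not show which cells the Ptprc transcripts came from, and the part of other cells was not tested.

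Cd24a (ENSMUSG00000047139.9; chr10:43578284-43584265, plus strand, 2 exons) was the most abundant of the antigens in 6 of 6 libraries. Its levels were 9996, 9298, 5467, 6050.0, 4291 and 4368 TPM in replicates 1 to 6 (mean ± SD, 6578 ± 2478 TPM; n = 6). Replicates 1 and 2 stood above the other 4 libraries, and Cd24a ranked between 5th and 11th of all genes of a library. It made up 64.6% to 72.2% of the summed TPM of the 7 genes, and this sum was 0.646% to 1.40% of all TPM. Relative to Epcam of the same library, a measure that library scaling cannot change, Cd24a was 4.17 ± 0.762 times as high (SD, n = 6), from 3.19 in replicate 3 to 5.20 in replicate 2. Of the stretches of 25 bases in its transcript, 8.43% also occur in other genes of GENCODE M21, chiefly in Gm6212 (7.14%), which has no row in the table. For the other 6 genes this share was at most 1.36%. Siglecg, the gene of the mouse CD24-binding receptor Siglec-G, was at 0 in all libraries.

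Siglecf (ENSMUSG00000039013.16; chr7:43351341-43359531, plus strand, 9 exons) reached 1328, 1157, 684, 915, 705 and 811 TPM in replicates 1 to 6. The mean was 933 ± 259 TPM (SD, n = 6), and the gene ranked between 60th and 187th in its libraries. Replicates 1 and 2 were again the highest, and replicate 3 was the lowest, as it was for Cd24a per Epcam. Siglecf per Epcam was 0.609 ± 0.110 (SD, n = 6), and its value of 0.399 in replicate 3 lay below the 0.582 to 0.702 of the other 5 libraries. Other genes of the family were low or at 0. Of 8 other Siglec genes, only Mag, the myelin-associated glycoprotein gene, averaged at least 1 TPM, at 12.6 ± 7.09 TPM (SD, n = 6), and 3 were at 0 in every library (Siglec1, Siglecg and Siglec15). Cd22 was above 0 in all 6 libraries but at no more than 0.64 TPM, and Cd33, Siglece and Siglech reached at most 0.17, 0.86 and 0.09 TPM.

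Eosinophils carry Siglec-F on their surface, so their genes were set beside it. Of 8 eosinophil genes, 6 were at 0 in all libraries, namely the granule protein genes Prg2, Epx, Ear1, Ear2 and Ear6 and the lipoxygenase gene Alox15. The remaining genes were low. Ccr3, the eotaxin receptor gene, had 18.3 and 12.2 TPM in replicates 1 and 2, 1.74 and 1.46 TPM in replicates 5 and 6 and 0 in replicates 3 and 4, and Il5ra had 0.49 to 1.32 TPM. The whole list summed to 0.49 to 18.9 TPM, against 684 to 1328 TPM for Siglecf, which had 684 and 915 TPM in replicates 3 and 4, where Ccr3 was at 0. Eosinophils carry CD45, which the gate was set against, and their part in the level of Siglecf was not tested.

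**Figure D1:**
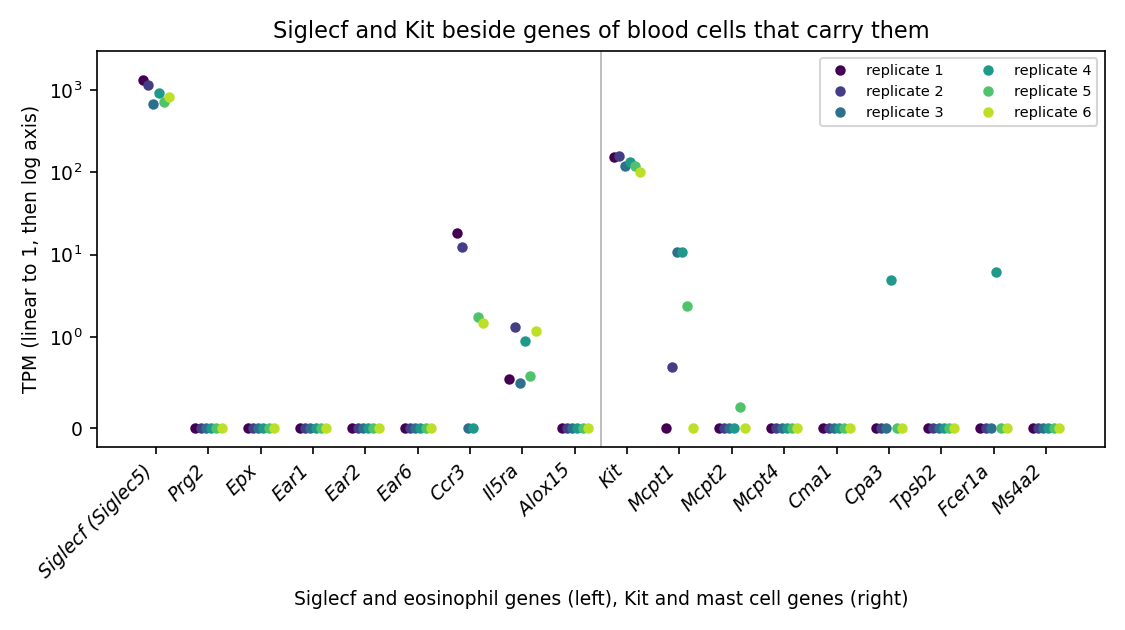
TPM (linear up to 1, log axis above) of Siglecf with 8 eosinophil genes at the left and of Kit with 8 mast cell genes at the right, one point per library. Siglecf lies at 684 to 1328 TPM and Kit at 100.2 to 158 TPM, while 6 eosinophil and 4 mast cell genes lie at 0 in all 6 libraries.

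Siglec-F signals through an inhibitory tyrosine motif, which Src family kinases phosphorylate and which binds phosphatases. The genes of this machinery were all above 0 in all libraries (7 of 7). Ptpn6, the gene of the phosphatase SHP-1, had 1069 ± 168 TPM (SD, n = 6). The lipid phosphatase gene Inpp5d had 190.5 ± 35.0 TPM, Lyn had 72.2 ± 19.3 TPM and Src had 16.8 ± 3.26 TPM (SD, n = 6 each). Ptpn11, the gene of the related phosphatase SHP-2, had 4.75 to 12.2 TPM, and its range lay below that of Ptpn6 in every library.

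Cd47 (ENSMUSG00000055447.19; chr16:49800533-49915010, plus strand, 11 exons) had 291, 299, 220.3, 244.5, 204 and 158 TPM in replicates 1 to 6 (mean ± SD, 236 ± 53.9 TPM; n = 6). Replicates 1 and 2 were the highest and replicate 6 the lowest. Its receptor gene Sirpa was low, at 5.14 TPM in replicate 1, 1.87 TPM in replicate 3 and at most 0.06 TPM in the others. Thbs1, the gene of thrombospondin-1, another ligand of CD47, had 15.3 ± 8.63 TPM (SD, n = 6), with 31.9 TPM in replicate 4 and at most 17.6 TPM in the others.

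Prom1 (ENSMUSG00000029086.15; chr5:43993620-44102032, minus strand, 25 exons) had 130.3, 169.8, 173, 161, 129 and 114 TPM in replicates 1 to 6 (mean ± SD, 146 ± 25.1 TPM; n = 6). It was 1 of 2 members that did not have its highest values in replicates 1 and 2, the other being Cd44. In replicate 1, where Cd24a, Epcam and Siglecf were highest, Prom1 per Epcam was 0.0634, below the 0.0946 to 0.128 of the other libraries.

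Kit (ENSMUSG00000005672.12; chr5:75574916-75656722, plus strand, 21 exons) had 153, 158, 119, 132, 118 and 100.2 TPM in replicates 1 to 6 (mean ± SD, 130 ± 22.1 TPM; n = 6). Its spread, with 1.57 times between the lowest and highest library, was among the smallest of the 7 genes. The SD of Kit on the log2(TPM + 1) scale, 0.246, was at the 10.5th percentile of 6937 genes that averaged 10 TPM or more and were above 0 in all libraries, and that of Prom1, 0.251, at the 11.2th. The gene of its ligand, Kitl, was present in the same libraries at 5.75 to 18.8 TPM. KIT is also the defining receptor of mast cells, and of 8 mast cell genes 4 were at 0 in all libraries (Mcpt4, Cma1, Tpsb2 and Ms4a2). Mcpt1 had 10.9 TPM in each of replicates 3 and 4 and 0 to 2.39 TPM elsewhere, Cpa3 and Fcer1a were listed only in replicate 4, at 4.86 and 6.06 TPM, and Mcpt2 only in replicate 5, at 0.23 TPM. The mast cell list summed to 0 TPM in replicates 1 and 6, in which Kit had 153 and 100.2 TPM. Mast cells also carry CD45, and their part in the level of Kit was not tested.

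Cd44 (ENSMUSG00000005087.17; chr2:102811141-102901665, minus strand, 19 exons) stood apart from the other antigens. It had 6.53, 5.22, 12.1, 6.10, 6.41 and 7.19 TPM in replicates 1 to 6 (mean ± SD, 7.26 ± 2.46 TPM; n = 6), and lay between the 32.3rd and the 51.7th percentile of genes above 0 TPM in a library, where the other 6 antigens were at or above the 92.4th. Replicate 3 lay far above the other libraries by Dixon's ratio, as 1 library did for 7.79% of genes above 0 in all libraries, and without it the mean was 6.29 TPM. With median-of-ratios scaling the ratio fell below the critical value, from 0.714 to 0.530. Cd44 is a marker of crypt base cells, and the 7 genes of the crypt stem cell list ranged around it in the same libraries. Olfm4 (501 ± 173 TPM), Lgr5 (57.1 ± 11.5 TPM), Smoc2 (27.9 ± 10.4 TPM), Slc12a2 (18.2 ± 4.49 TPM) and Ascl2 (12.3 ± 4.68 TPM) had higher means, Axin2 (8.32 ± 3.22 TPM) was within the spread of Cd44 (SD, n = 6 each), and Gkn3 was at 0 in 4 libraries and at 1.78 and 3.56 TPM in replicates 2 and 3. All 5 genes of the list for splicing and cleavage of CD44 averaged more than Cd44 itself. The surface proteases Adam10, Adam17 and Mmp14 had 44.2 ± 8.06, 11.8 ± 6.27 and 10.3 ± 4.24 TPM, and the splicing regulators Esrp1 and Esrp2 had 22.6 ± 4.61 and 20.3 ± 5.37 TPM (SD, n = 6 each). Hyaluronan synthase genes were near 0, with Has1 at 0 throughout, Has2 at most 0.05 TPM and Has3 at most 0.52 TPM. Cd74, the invariant chain gene whose product works with CD44 as a receptor, had 262 ± 134 TPM, and Tgm2, a transglutaminase gene, 56.3 ± 15.7 TPM (SD, n = 6).

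**Figure D2:**
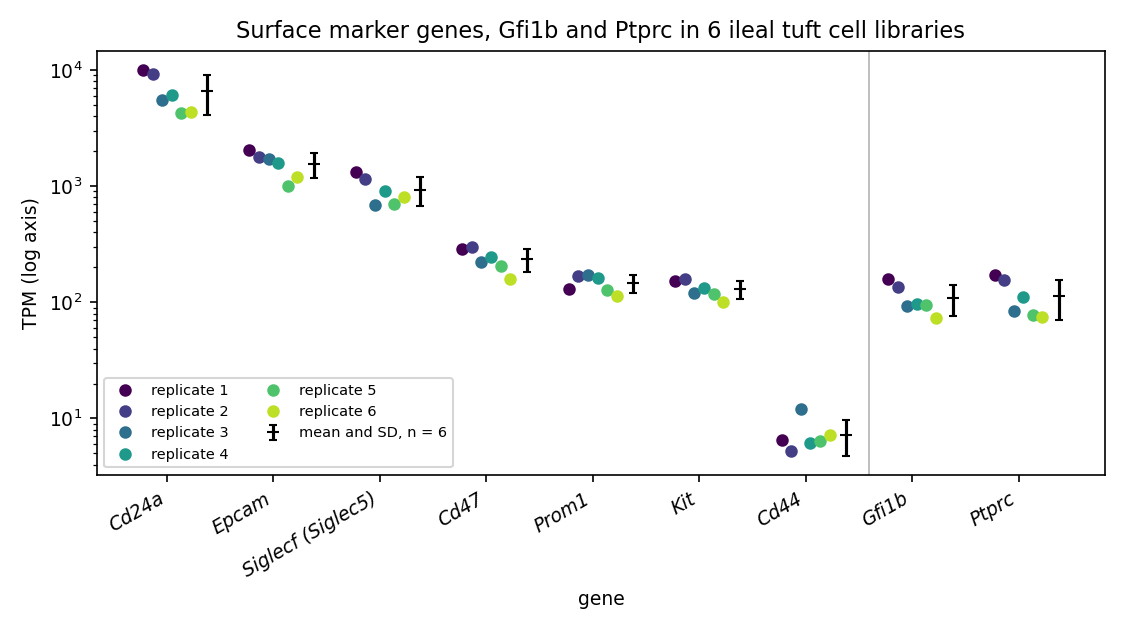
TPM (log axis) of the 7 antigen genes and, right of the line, of Gfi1b and Ptprc, with one point per library and the mean and SD of 6 libraries as a bar. The order falls from Cd24a (mean 6578 TPM) over Epcam (1556 TPM) and Siglecf (933 TPM) to Cd44 (7.26 TPM), with Prom1 and Kit overlapping.

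Other antigens used to sort gut epithelium gave a scale for these levels. Of 12 such genes, 8 averaged 10 TPM or more, and 0 had a mean as high as that of Siglecf. They were Anpep, the enterocyte aminopeptidase CD13 (240.3 ± 109 TPM), Cd38 (115 ± 41.2 TPM), Ptprc (above), Itgb1 (56.3 ± 21.4 TPM), Itga6 (28.9 ± 8.47 TPM), Dpp4 (22.9 ± 9.01 TPM), the crypt receptor gene Ephb2 (19.1 ± 3.58 TPM) and Ly6a (17.8 ± 7.66 TPM; SD, n = 6 each). The antigens Ephb3, Alcam, Lrig1 and Cd1d1 averaged 2.18 to 7.41 TPM. Against the 7 genes, the mean of Anpep lay above those of Cd47 (236 TPM), Prom1 (146 TPM), Kit (130 TPM) and Cd44. All 8 genes that averaged 10 TPM or more lay above Cd44 (7.26 TPM).

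To ask which antigens differed in abundance, every pair of the 7 genes was compared within libraries on the log2(TPM + 1) scale, with an exact permutation test (two-sided) that flips the signs of the 6 differences. Cd24a, Epcam, Siglecf and Cd47 held the first to the fourth place and Cd44 the last in 6 of 6 libraries. In 20 of 21 pairs the same gene was higher in all 6 libraries, for an exact p of 0.03125, which is the lower limit of the test, and an adjusted p of 0.0328 over the 21 pairs (Benjamini-Hochberg). This p follows from the signs alone, and the share of all gene pairs with such a fixed order was not computed. The means ran from 7.26 to 6578 TPM, while none of the 7 genes varied by more than 2.33 times between libraries. Between neighbours in the order, Cd24a exceeded Epcam by 2.04 ± 0.265, Epcam exceeded Siglecf by 0.74 ± 0.301, Siglecf exceeded Cd47 by 1.97 ± 0.265, Cd47 exceeded Prom1 by 0.67 ± 0.284 and Kit exceeded Cd44 by 4.01 ± 0.530 on that scale (SD, n = 6). The differences between Prom1 and Kit were within their spread. Prom1 was higher in 5 of 6 libraries, by 0.17 ± 0.251 on average (p = 0.156 by the same exact test, and 0.156 adjusted), and Kit was higher in replicate 1.

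All 7 genes had a higher mean in replicates 1 to 3 than in replicates 4 to 6, as did 67% of the genes above 0 in all libraries, and 5 of them (Cd24a, Epcam, Siglecf, Cd47 and Kit) were higher in both replicates 1 and 2 than in any other library, as were 15.5%. The sets of 3 libraries differ in Gm20594, at 1.56% to 2.13% of TPM in replicates 1 to 3 and 5.18% to 5.64% in replicates 4 to 6, and its part in the levels was not tested. Within the sets the means were 8254 ± 2438 and 4903 ± 994 TPM for Cd24a, 1853 ± 180 and 1258 ± 288 TPM for Epcam, 1056 ± 334 and 810.4 ± 105 TPM for Siglecf and 270.1 ± 43.4 and 202 ± 43.4 TPM for Cd47 (SD, n = 3). They were 158 ± 23.9 and 135 ± 24.5 TPM for Prom1, 143 ± 20.9 and 117 ± 15.8 TPM for Kit and 7.95 ± 3.65 and 6.57 ± 0.562 TPM for Cd44 (SD, n = 3).

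**Figure D3:**
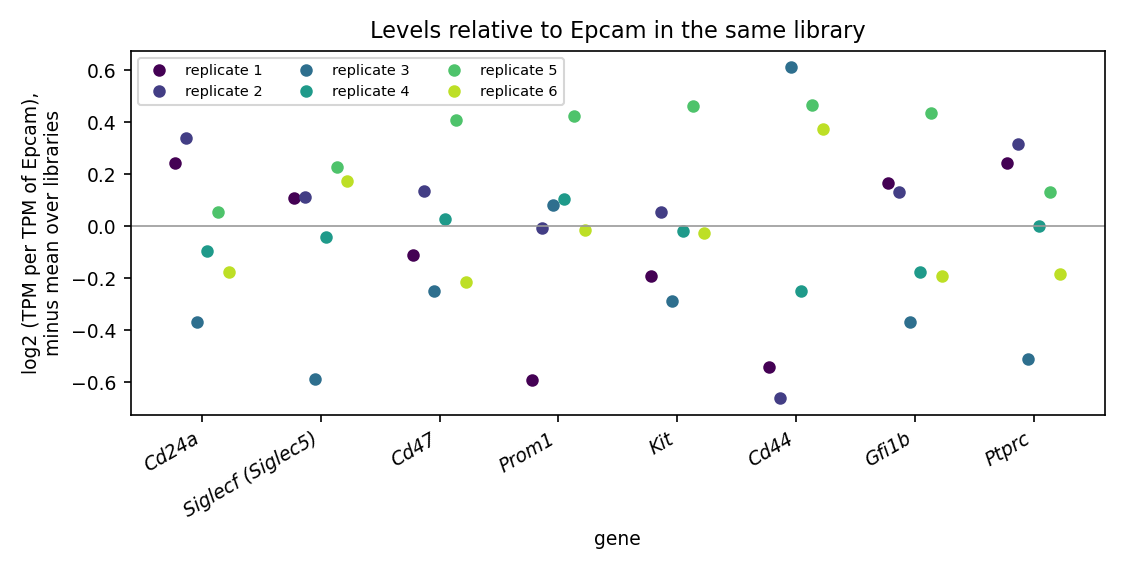
Log2 ratio of each gene to Epcam of the same library, centred on its mean over 6 libraries, with one point per library. In replicate 3 Cd24a, Siglecf, Cd47, Kit, Gfi1b and Ptprc lie at their lowest and Cd44 at its highest, at 0.00706 TPM per TPM of Epcam against 0.00292 in replicate 2.

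To ask which antigens varied together, the 21 pairs were correlated over the 6 libraries on the log2(TPM + 1) scale. All values of a library share its scaling, so the coefficients were also computed under other scalings. Of the 21 coefficients 17 were positive, with a median r of 0.58, where 56.7% of all pairs among the 6937 genes above, which do not include Cd44, were positive, with a median r of 0.10. With median-of-ratios scaling 14 were positive (median r 0.25, against 50% of all pairs), and without Rn45s and Gm20594 13 were (median r 0.24, against 50.5%). In the TPM as deposited 5 pairs had an unadjusted exact permutation p below 0.05, namely Cd24a with Epcam, Siglecf, Cd47 and Kit, and Cd47 with Kit. The share of all gene pairs with such a p was not computed. Only Cd47 with Kit stayed below 0.05 after adjustment over the 21 pairs (r = 0.990 by Pearson, with an exact permutation p of 0.00139 that became 0.0292 on adjustment, n = 6). Its Spearman rho was 1.00 (p = 0.00278 by exact permutation, 0.0583 adjusted). This p is the smallest that 720 pairings allow for ranks, and a single pair at this limit among 21 adjusts to 0.0583. Leaving out replicates 2 and 6, whose Cd47 was farthest from its median, gave r = 0.986. With median-of-ratios scaling r was 0.959 (exact permutation p = 0.00139, adjusted p = 0.0292). After rescaling without Rn45s and Gm20594 it was 0.953, and the adjusted p was 0.0583 (exact permutation test). Centred within replicates 1 to 3 and 4 to 6, r was 0.984, with an exact permutation p of 0.0278, the smallest that 36 pairings allow, and an adjusted p of 0.146.

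For the other 4 of these pairs the p of r is by exact permutation over 6 libraries. With median-of-ratios scaling the p of Cd24a with Epcam became 0.0528 and that with Kit 0.0708 (exact permutation). Cd24a had r = 0.938 with Kit (exact p = 0.00694, 0.0729 adjusted) and 0.913 with Cd47 (exact p = 0.0111, 0.0778 adjusted), each with rho = 0.886 (exact p = 0.0333, 0.175 adjusted), and r was 0.773 and 0.804 once replicates 1 and 2 were left out. With Siglecf r was 0.914 (exact p = 0.0222, 0.117 adjusted) and rho was 0.829 (exact p = 0.0583, 0.175 adjusted). Leaving out replicates 1 and 2 took r to 0.420, so the relation rests on those libraries. With Epcam r was 0.876 (exact p = 0.0347, 0.146 adjusted), rho was 0.943 (exact p = 0.0167, 0.175 adjusted) and leaving out the same libraries gave r = 0.892. Cd44 had negative coefficients with Cd24a, Siglecf, Cd47 and Kit. The lowest was -0.602 with Siglecf (exact p = 0.194, 0.371 adjusted), where rho was -0.543 (exact p = 0.297, 0.390 adjusted) and r was -0.639 in the libraries other than replicates 1 and 2. Scaling moved these values. Cd44 with Siglecf had r = -0.786 with median-of-ratios factors (exact p = 0.0722, 0.204 adjusted) and -0.830 without Rn45s and Gm20594 (exact p = 0.0417, 0.152 adjusted), and Cd44 with Kit went from -0.454 as deposited (exact p = 0.392, 0.548 adjusted) to -0.785 (exact p = 0.0431, 0.204 adjusted) and -0.910 (exact p = 0.00278, 0.0583 adjusted). Prom1 had r = 0.024 with Siglecf (exact p = 0.967, 0.967 adjusted) and rho = -0.0857 (exact p = 0.919, 0.919 adjusted), and r was -0.0563 without replicates 1 and 2.

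**Figure D4:**
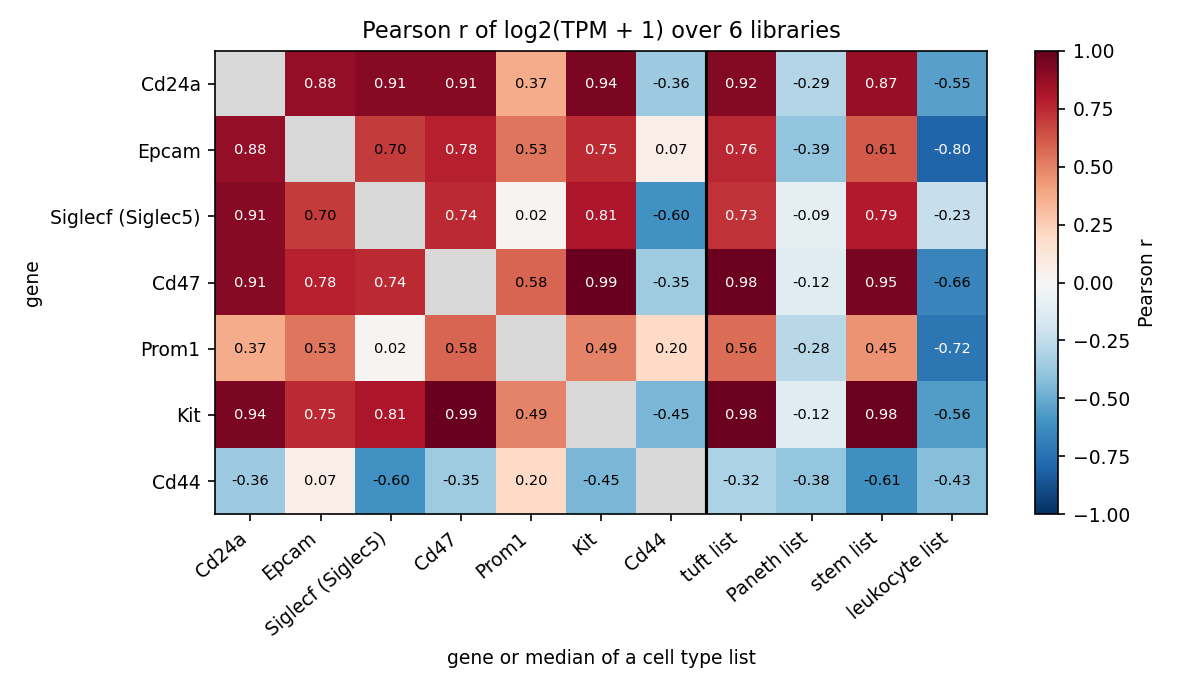
Pearson r of log2(TPM + 1) over 6 libraries between the 7 antigen genes and, right of the line, with the median of the tuft, Paneth, stem and leukocyte lists; gray cells are a gene with itself. Cd47 with Kit has 0.99, while Prom1 and Cd44 have the weakest or negative values in most columns.

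The same genes were set against the median of 4 cell type lists, in 28 relations. How many of all genes follow these medians as closely was not computed. Cd47 and Kit rose with the tuft cell list (Cd47, r = 0.980, exact permutation p = 0.00278, adjusted p = 0.0259; Kit, r = 0.979, with the same exact permutation p values). Their rho was 0.943 (exact permutation p = 0.0167, adjusted p = 0.117), and r was 0.940 and 0.934 without replicates 2 and 6. They rose with the stem cell list in the same way (Cd47, r = 0.951, exact permutation p = 0.00694, adjusted p = 0.0486; Kit, r = 0.977, exact permutation p = 0.00278, adjusted p = 0.0259), again with rho = 0.943 (exact permutation p = 0.0167, adjusted p = 0.117) and with r of 0.877 and 0.934 without replicates 2 and 6. With median-of-ratios scaling the relations of Cd47 kept an adjusted p of 0.0389, and those of Kit had 0.0856 with the tuft list and 0.0583 with the stem list (exact permutation tests). With the mean of each list in place of its median, 0 of 28 relations had an adjusted p below 0.05 and 4 had an unadjusted exact permutation p below 0.05. The r with the stem list was then 0.685 for Cd47 (exact permutation p = 0.132, adjusted p = 0.445) and 0.641 for Kit (exact permutation p = 0.179, adjusted p = 0.456). With the tuft list it was 0.852 for Cd47 (exact permutation p = 0.0347, adjusted p = 0.243) and 0.911 for Kit (exact permutation p = 0.0125, adjusted p = 0.130). Centred within the sets of 3 libraries, the r of Cd47 and Kit with the tuft and stem lists was 0.957 to 0.987 with an adjusted p of 0.130 (exact permutation test). After rescaling without Rn45s and Gm20594, 4 of 28 relations had an adjusted p of 0.0389, those of Cd47 with both lists and those of Kit and Cd44 with the stem list, where Cd44 had r = -0.915 (exact permutation tests). Cd44 and the stem list had r = -0.612 in the TPM as deposited (exact permutation p = 0.189, adjusted p = 0.407). With the list mean in place of the median this r was 0.163 (exact permutation p = 0.814, adjusted p = 0.844). In replicate 3, where Cd44 was highest, Olfm4, Smoc2 and Gkn3 of the list were highest as well, while Slc12a2 was lowest. The Paneth list had r of -0.395 to -0.0894 and the leukocyte list r of -0.798 to -0.230 with the 7 genes, and the smallest adjusted p of these 14 relations was 0.243 (exact permutation tests). These signs depended on scaling, as 4 of 7 coefficients with the Paneth list were positive with median-of-ratios factors and 6 of 7 after centring, and Siglecf with the leukocyte list had r = 0.0344 after rescaling without Rn45s and Gm20594 and 0.166 after centring.

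The genes whose pattern over the 6 libraries was most like each antigen were sought among the 6937 genes above, by Pearson r, as a description. With 6 libraries high values are common, and 60 to 333 genes per antigen had r above 0.9. Cd24a was closest to Ndrg1 (r = 0.998), Tmem176a (0.992) and the fatty acid receptor gene Ffar3 (0.992). Siglecf was closest to Ccnj (0.993), Slc25a20 (0.990) and Kalrn (0.985), and Epcam to Acp5 (0.995), Abcc3 (0.995) and Capzb (0.994). For Cd47 these were Plscr3 (0.995), Rchy1 (0.993) and Kit (0.990), and for Kit they were Cd47 (0.990), Rchy1 (0.990) and Irf2bpl (0.988), so that each was in the first 3 of the other. Prom1 was closest to Ulk3 (0.996), Ugp2 (0.992) and Ppil4 (0.990), and Cd44 to Impdh2 (0.988), Canx (0.982) and the Notch target Hes1 (0.980). After median-of-ratios scaling, all 3 genes named for Siglecf were again its first 3, while 0 of the 3 named for Cd47 and for Prom1 were. Of those named for Kit only Rchy1 stayed, and Cd47 and Kit were no longer in the first 3 of each other.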

How the data were processed

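RNA was extracted from sorted tuft cells, amplified by a modified SMART-Seq2 protocol and sequenced as paired-end libraries. The labels also name polyA sequencing of 3' ends and a droplet preparation. Bowtie alignment was to mm10 transcripts from UCSC, and RSEM gave the TPM per gene that the authors deposited. TopHat and DESeq2 are also listed in the submitters' processing notes. The deposited TPM table gives 2 decimals, sums to 1000000 per library and keeps no depth, so no count model was run. The strand setting is not given in the sources used here, and antisense reads cannot be told apart.

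Columns were matched to replicates by number. Genes were compared within libraries on the log2(TPM + 1) scale by exact sign-flip tests over 64 assignments, and across libraries by exact permutation over 720 pairings, each adjusted by the Benjamini-Hochberg method over its 21 or 28 relations. The Mann-Whitney test, which the study's methods name, was an alternative. The p-values refer to these 6 libraries only, and those of sign-flip tests at their lower limit follow from the signs alone. The genes and lists were chosen with earlier results of these data known. Those named are the 7 antigen genes, genes of the related lists that averaged 10 TPM or more, the genes of the leukocyte, eosinophil and mast cell lists, and for each antigen the 3 genes of highest r. The genes of the stem cell list, and low members of the related lists as examples, were named after their values were seen. Lists of 9 enteroendocrine genes (387 to 528 TPM in sum) and 8 endothelial and mesenchymal genes (0 to 62.0 TPM) were also summed. Positions are from GENCODE M21 and start regions from RefSeq. Scaling factors and the search for similar genes were tested on simulated data. Statistics used scipy 1.17.1 with numpy 2.4.6 under Python 3.11.15, tables pandas 2.3.3 and plots matplotlib 3.10.9. Some genes of the lists are not reported here.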

Additional observations from a re-analysis of the deposited data

Results flagged for a closer look

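Of 56 measures screened (the 7 antigen genes, Gfi1b, Ptprc, the related and leukocyte genes that averaged 10 TPM or more, and the sums of 16 lists), 5 had 1 library far from the nearest other when that gap was divided by the range of all 6 (Dixon's ratio), where chance flags about 1 in 20 (2.8 of 56) and 7.79% of all genes above 0 in all libraries were flagged. Cd44 was at 12.1 TPM in replicate 3 and at most 7.19 TPM elsewhere (ratio 0.714). On the log2(TPM + 1) scale its ratio was 0.631, still past the critical value, and with median-of-ratios scaling it was 0.530, below it. Itgam was at 20.7 TPM in the same library and at most 14.5 TPM elsewhere. Cd52 was at 39.2 TPM in replicate 5 and at most 12.1 TPM elsewhere, and without that library its mean was 5.16 TPM. Thbs1 was at 31.9 TPM in replicate 4 and at most 17.6 TPM elsewhere. On the log2(TPM + 1) scale the ratios of Itgam (0.569), Cd52 (0.361) and Thbs1 (0.507) fell below the critical value, and with median-of-ratios scaling that of Itgam did (0.411) while those of Cd52 (0.701) and Thbs1 (0.729) stayed past it. The endothelial and mesenchymal list summed to 62.0 TPM in replicate 5 and to at most 0.28 TPM elsewhere, with Dcn at 59.4 TPM. The log2 and rescaled ratios were chosen after seeing the data.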

How the results depend on the processing

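All 20 pairs of antigens with an adjusted p below 0.05 kept it under pseudocounts of 0.1 and 0.01, both rescalings, values under 0.1 TPM set to 0 and the exact Mann-Whitney test, and 0 of 21 differences changed direction with a library left out. Scaling acts alike on both genes of a library, so this order is no evidence of stability. Prom1 and Kit differed by 0.0945 to 0.248 (log2) with a library left out, and 5 libraries cannot give a p below 0.0625. Rescaling without Rn45s and Gm20594 raises every value by its construction, with means of 9421 TPM for Cd24a, 2233 for Epcam, 1349.8 for Siglecf, 340.3 for Cd47, 211 for Prom1, 188 for Kit and 10.5 for Cd44. With each library left out, the means were 5895 to 7036 TPM for Cd24a, 1455 to 1666 for Epcam, 854 to 983 for Siglecf, 223 to 252 for Cd47, 141 to 153 for Prom1, 124 to 136 for Kit and 6.29 to 7.67 for Cd44. Correlations between antigens with an adjusted p below 0.05 numbered 1, and 0 after this rescaling and after centring within sets of libraries. Those with cell type lists numbered 4, and 2 with median-of-ratios factors, 0 after centring and 0 with list means. Centring leaves 36 pairings in place of 720. For the other changes the cause was not tested. No paired analysis was possible because the 6 libraries form 1 group, so no replicate number pairs samples of different groups. The tests within libraries pair genes, and the Mann-Whitney test leaves this pairing out. As depth is unknown, no detection limit can be given for the genes at 0.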
